A study of Mus musculus with 9 samples.

Results

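Contextual fear conditioning (training a mouse to link a chamber with a foot shock) was compared with no training in mice that all carried a hairpin against the histone variant H2A.Z in the hippocampus. The comparison covered 12334 genes of the 24489 rows of the table, namely those with a mean of at least 1 FPKM (fragments mapped to a gene, divided by its transcript length and by the library's mapped total) over the 6 libraries compared. Of the rest, 27 rows had names that had turned into dates, 5989 rows stood at 0 in all 6 libraries and 6139 lay under the limit. The genes just outside the limit were Prkd2, Ppih and Xlr at means of 0.9994, 0.9995 and 0.9996 FPKM, and those just inside were Alox8, Ang and Cdkn1c at 1.0009, 1.0016 and 1.0019 FPKM.

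All mice were C57BL/J6, 9 to 12 weeks old, and RNA came from area CA1 of the hippocampus. The naive group (3 libraries) and the trained group (3 libraries) both received an adeno-associated virus that expresses a short hairpin RNA (shRNA) against H2A.Z. A further group of 3 libraries received a scrambled shRNA from the same kind of virus and served here only as a reference level and for the estimate of spread. No trained group with the scrambled shRNA was analysed here, so an effect of training common to all mice and an effect that needs the H2A.Z hairpin cannot be told apart. The labels do not state whether the scrambled control mice were trained, the interval from training to dissection, the cells that the virus reached, or whether a library came from 1 mouse or from pooled mice. They call the libraries biological replicates.

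Neuronal firing turns on a fast set of genes through calcium, CREB and the MAP kinases: first transcription factors such as Fos, Egr1 and Nr4a1, then effectors such as Arc that act at the synapse. The stress of a shock also raises glucocorticoid hormone, whose receptor binds paired half-sites near genes such as Sgk1, Tsc22d3 and Per1. H2A.Z replaces histone H2A in nucleosomes around promoters, put there by the Srcap and Ep400 complexes, and in the hippocampus it is known as a brake on memory genes. Interferons, signals of antiviral defence, act through STAT and IRF factors on interferon-stimulated response elements, and viral vectors can engage the same pathway.

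By the steps between low values, the relative depth of the 9 libraries was estimated at 0.871 to 1.26. By the same kind of step, 1 FPKM corresponded to roughly 18.6 to 26.9 fragments for each kilobase of transcript. Both searches were limited to a preset window of values, so a depth far outside these ranges could not have been found. The relative depth rested on few genes, from 214 of 2026 low genes in naive replicate 1 to 376 of 2015 in trained replicate 3. The FPKM total of a library ran from 296327 to 442251, and from 270418 to 286426 without small RNA genes. The Pearson correlation of log2(FPKM + 1) across genes was 0.962 to 0.967 among naive libraries, 0.962 to 0.976 among trained ones and 0.950 to 0.9748 between the groups. CA1 markers were present, Wfs1 at 61.2 to 101.9 FPKM in the 6 libraries, and the dentate marker Prox1 was present too, at 14.1 to 28.9 FPKM. In bulk tissue, fewer cells of a type and less RNA per cell cannot be told apart.

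H2afz, the gene of H2A.Z.1, stood at 25.1, 27.8 and 28.0 FPKM in the libraries labelled naive, at 28.5, 23.9 and 25.8 FPKM in those labelled trained and at 26.1, 28.7 and 26.4 FPKM in the scrambled controls. The 3 groups overlapped, so the table shows no lower H2afz transcript in the libraries labelled H2A.Z shRNA, and the presence of the hairpin rests on the labels. H2afv, which encodes H2A.Z.2, was at 15.4, 15.7 and 15.9 FPKM in naive and 14.995, 12.999 and 14.5 FPKM in trained libraries. Trained libraries lay below naive ones for H2afv, at a log2 fold change (trained minus naive, on FPKM + 1) of −0.14 (SE 0.06) that missed the threshold (limma adjusted p = 0.605).

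Training was followed by a higher level of 1 gene, Sgk1, the serum- and glucocorticoid-regulated kinase that controls ion channels and has been tied to hippocampal memory. Sgk1 (chromosome 10, 21882184 to 21999903, plus strand, GRCm38) stood at 13.2, 14.9 and 14.99 FPKM in the naive libraries, at 26.4, 27.1 and 26.5 FPKM in the trained ones and at 16.6, 15.4 and 14.2 FPKM in the scrambled controls. The trained libraries were tightly grouped and lay far above all 6 others, while naive and control libraries overlapped. Sgk1 rose 1.86-fold by the ratio of means, or 0.85 on the log2 scale (SE 0.07, adjusted p = 0.00638 by limma). It kept its size but missed the threshold without trained replicate 3 (0.86, adjusted p = 0.0902), and over all 21 alternative settings its adjusted p ran from 0.00153 to 0.0902.

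No other gene passed. Of all genes tested, 0.00811% were called higher and 0% lower at a limma adjusted p under 0.05, and the next smallest adjusted p was 0.455. At an unadjusted p under 0.05 there were 337 higher genes (2.73%) and 686 lower (5.56%), or 8.29% in all, against 617 genes expected where nothing differs. That split depended on scaling, with 503 higher and 502 lower after median-of-ratios scaling and 643 higher and 439 lower after quantile normalization. All 3 trained libraries lay above all 3 naive ones in 713 genes (5.78%) and below them in 1129 (9.15%). These shares are the background for the counts below. The median log2 fold change over all genes was −0.02, and 41.3% of estimates were above 0.

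**Figure D1:**
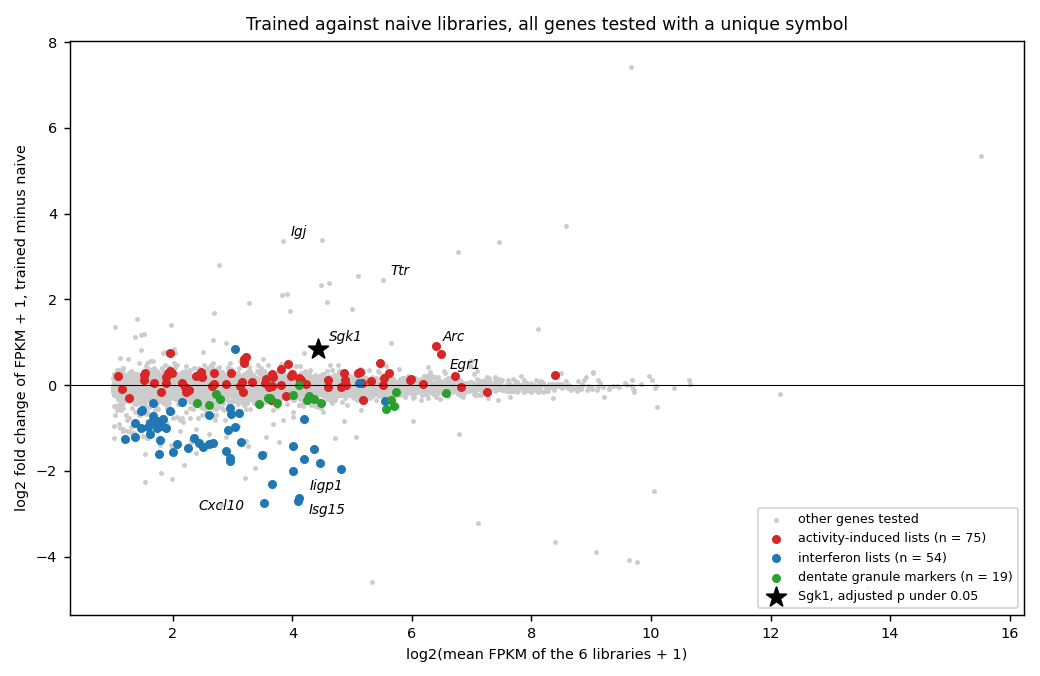
Log2 fold change of FPKM + 1 (trained minus naive, y axis) against the log2 mean level of the 6 libraries (x axis), with 1 point per gene of unique symbol. Members of the activity-induced lists (red) lie mostly above 0, members of the interferon lists (blue) lie almost all below it, and only Sgk1 (star) passed the threshold. The outlying grey points are mostly small RNA genes.

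The upstream sequence of Sgk1 is shown because it holds a full glucocorticoid response element. The motif, AGAACA and TGTNCT with any 3 bases between them (N is any base), was searched on both strands in the 250 bases before each RefSeq transcription start (GRCm38.p6). It occurred in 1 of the 6 Sgk1 promoters, in 0.0365% of all 32851 promoters in the table and in 0.0168% of those of genes tested. In the list of glucocorticoid-induced genes it was found in 1 of 30 promoters, and that one was of Sgk1. The window is chr10:21993640-21993889 on the plus strand, written 5′ to 3′ with the motif in capitals, 189 to 175 bases before the start.
Sgk1: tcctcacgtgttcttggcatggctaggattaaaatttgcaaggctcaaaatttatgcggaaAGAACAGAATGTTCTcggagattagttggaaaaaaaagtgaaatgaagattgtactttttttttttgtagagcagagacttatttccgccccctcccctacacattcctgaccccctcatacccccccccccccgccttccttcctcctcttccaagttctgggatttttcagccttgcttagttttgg
A match of letters is a description and not evidence of receptor binding.

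The other genes induced by neuronal activity lay mostly above their naive level, without passing the test. Together the lists of immediate early transcription factors, activity-induced effectors and MAP kinase feedback genes held 75 tested genes, and 55 of them had an estimate above 0. The trained libraries lay wholly above the naive ones in 20 of the 75 (26.7%, against 5.78% of all genes) and wholly below in 0 (against 9.15%). The median log2 fold change of the 75 was 0.13, and 0 of them passed the threshold. These lists contain genes that earlier looks at these data had already shown, so their direction is no independent evidence.

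Among transcription factors, 8 of 28 tested members had trained libraries above all naive ones. Egr1, a zinc finger factor needed for late phases of plasticity, stood at 58.7, 65.1 and 76.6 FPKM in naive and at 95.9, 109.4 and 126 FPKM in trained libraries. Its controls were at 98.5, 72.7 and 72.6 FPKM, with control replicate 1 above trained replicate 1. Fos, a subunit of AP-1, stood at 5.24, 6.67 and 6.72 FPKM in naive and at 7.55, 12.2 and 11.7 FPKM in trained libraries. For both genes naive and trained values were apart, narrowly so for Fos, where trained replicate 1 was close to the naive level. The log2 fold changes were 0.72 (SE 0.15) for Egr1 and 0.65 (SE 0.20) for Fos, with limma adjusted p of 0.455 and 0.553. Egr4 was at 10.8 to 13.1 FPKM in naive and 14.4 to 18.7 FPKM in trained libraries. The orphan nuclear receptor Nr4a3 had naive values of 10.8 to 11.7 FPKM and trained values of 13.7 to 15.7 FPKM. Its relative Nr4a1 showed the same order with almost no gap, since the highest naive value was 41.2 FPKM and the lowest trained one 41.5 FPKM. Npas4, a factor specific to neuronal activity, was low in every library (1.22 to 2.01 FPKM naive, 1.79 to 2.48 FPKM trained), and its groups overlapped.

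Of the 32 effectors tested, 8 were separated upward. Arc, which drives endocytosis of AMPA receptors, was at 46.8, 63.8 and 62.8 FPKM in naive, 95.7, 113 and 118 FPKM in trained and 88.4, 32.9 and 36.8 FPKM in control libraries. Trained libraries lay above all others, yet 1 control came close, and the control group was the most spread. The estimate for Arc was 0.91 on the log2 scale (SE 0.32, adjusted p = 0.581 by limma). Arl4d, a small GTPase, was at 5.42 to 8.07 FPKM in naive and 9.40 to 10.1 FPKM in trained libraries. Homer1, a postsynaptic scaffold gene with an activity-induced short form that gene-level values cannot separate, was at 40.0 to 45.1 FPKM naive and 48.9 to 56.4 FPKM trained. Bdnf, the neurotrophin most studied in fear memory, overlapped at 14.3 to 16.8 FPKM naive and 16.5 to 18.5 FPKM trained. Fbxo33 (log2 fold change 0.21) and Mbnl2 (0.14) were separated upward by small amounts.

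MAP kinase feedback genes encode phosphatases and adaptors that shut the ERK pathway down after use. Of 15 tested, 4 were separated upward, 0 downward, and 11 had estimates above 0. Dusp5, a nuclear ERK phosphatase, was at 5.68, 5.46 and 7.499 FPKM in naive and 8.33, 10.8 and 11.0 FPKM in trained libraries. The trained values exceeded every naive value, but trained replicate 1 lay close to the scrambled controls (6.87 to 8.24 FPKM). Dusp1 (5.76 to 6.28 FPKM naive, 6.84 to 8.67 FPKM trained), Dusp4 (9.77 to 11.5 and 12.3 to 13.3 FPKM) and Errfi1, an inhibitor of the EGF receptor (12.7 to 13.8 and 15.97 to 16.8 FPKM), had the same order. In the list of CREB, PKA, CaMK and MAP kinase signalling genes, 3 of 47 were separated upward and 3 downward, 22 estimates were above 0, the median was −0.01, and that sign turned under median-of-ratios (0.01) and quantile scaling (0.01). Mapk3 (ERK1) was at 48.7 to 59.3 FPKM naive and 38.7 to 51.8 FPKM trained, and Map2k1 (MEK1) at 134 to 145 FPKM naive and 109.1 to 133 FPKM trained. Braf, a kinase upstream of both, was separated the other way, at 16.7 to 18.1 FPKM naive and 18.7 to 19.2 FPKM trained.

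**Figure D2:**
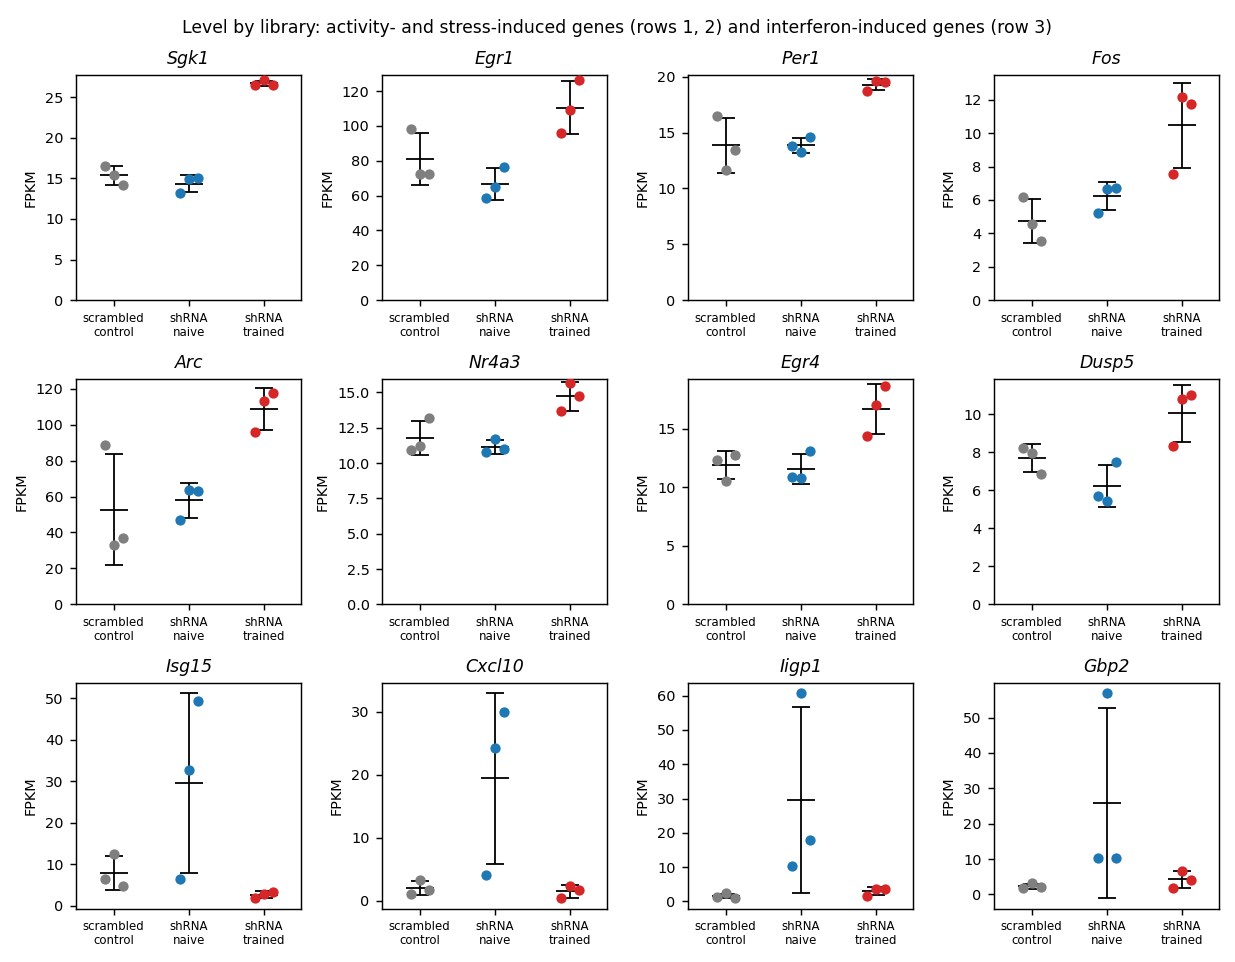
Level in FPKM (y axis, linear) of 12 genes in each library of the scrambled control, naive and trained groups, with points for libraries, the long bar for the group mean and the short bars for 1 SD (n = 3). Trained libraries lie above naive ones in the first 8 genes, with Sgk1 the tightest, while the 4 interferon-induced genes in the lowest row are spread over a wide range in the naive group only.

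The cAMP response element TGACGTCA, the CREB motif read the same on both strands, was present in 7 of 32 effector promoters (21.9%) and in 1 of 30 promoters of the transcription factors (3.33%), against 1.55% of all promoters and 2.64% of those of genes tested. Arl4d is shown as an effector whose groups did not overlap and whose element lies 26 to 19 bases before the start, at chr11:101665291-101665540, plus strand, motif in capitals.
Arl4d: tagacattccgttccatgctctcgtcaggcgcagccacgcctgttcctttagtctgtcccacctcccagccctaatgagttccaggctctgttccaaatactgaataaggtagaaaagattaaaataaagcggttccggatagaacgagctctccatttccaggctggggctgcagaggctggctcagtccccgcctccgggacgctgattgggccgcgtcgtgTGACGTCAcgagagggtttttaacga

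Genes induced by glucocorticoids had estimates mostly above 0. Of 18 tested, 14 were above 0, 5 were separated upward and 0 downward, and the median log2 fold change was 0.15. Sgk1 was the member that passed. Tsc22d3 (GILZ), which mediates anti-inflammatory actions of the hormone, was at 26.4, 31.0 and 31.3 FPKM in naive and 38.5, 40.2 and 37.9 FPKM in trained libraries. Per1, a clock gene with a hormone-responsive enhancer, was at 13.8, 13.3 and 14.6 FPKM naive and 18.7, 19.6 and 19.5 FPKM trained. Both had clear gaps between groups, with log2 fold changes of 0.39 (SE 0.10) and 0.45 (SE 0.10) and a limma adjusted p of 0.55 each. The controls were at 40.5, 34.0 and 29.9 FPKM for Tsc22d3 and at 16.5, 11.7 and 13.4 FPKM for Per1. For Tsc22d3, control replicate 1 was above every trained library and control replicate 2 above every naive one. For Per1, control replicate 1 was above all naive and below all trained libraries.

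Of the 21 circadian clock genes tested, 5 were separated upward and 1 downward, around a median of 0.04. The 4 members with the smallest p were Per1, Ciart (3.11 to 4.44 FPKM naive, 4.99 to 5.24 FPKM trained), Bhlhe40 (52.9 to 56.8 and 58.5 to 69.7 FPKM) and Nr1d2 (21.2 to 21.6 and 22.7 to 25.8 FPKM). Ciart and Bhlhe40 encode repressors of clock transcription, and Nr1d2 encodes REV-ERB beta. The labels give no time of day at dissection, and its part was not tested. Heat shock and unfolded protein response genes gave 25 of 31 estimates above 0 with a median of 0.04, which turned sign without naive replicate 1 (−0.03) or trained replicate 1 (−0.01). Among them, 4 were separated upward, such as the HSP40 gene Dnajb1 at 18.4 to 22.2 FPKM naive and 23.9 to 26.4 FPKM trained. Control replicate 1, at 30.9 FPKM, exceeded all 6.

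The lowest medians of the 42 lists were those of genes induced by interferon. Together the lists of interferon-stimulated genes and interferon-inducible GTPases held 54 tested genes, 52 of which had an estimate below 0, with a median log2 fold change of −1.17. Trained libraries lay wholly below naive ones in 29 of the 54 (53.7%, against 9.15% of all genes) and wholly above in 0. Some members, such as Ifi44, Oas1a and Samd9l, reached 1 FPKM only in naive replicates 2 and 3 of the 6 libraries compared. They were thus tested only through the group where they are high. How many of the 54 are of this kind was not counted, and the limit holds for the counts of both lists below. None of the 54 passed the threshold, since the naive libraries differed widely among themselves. The list was known to be high in naive libraries from earlier looks at the data.

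Isg15, a ubiquitin-like modifier, was at 6.42, 32.7 and 49.5 FPKM in naive, at 1.75, 2.83 and 3.26 FPKM in trained and at 6.30, 12.4 and 4.83 FPKM in control libraries. Naive replicate 1 sat among the controls, naive replicates 2 and 3 lay far above them, and all trained libraries lay below all controls. The estimate was −2.71 on the log2 scale (SE 0.63, adjusted p = 0.55 by limma). Cxcl10, a chemokine that attracts T cells, showed a similar spread at 4.18, 24.2 and 29.9 FPKM naive and 0.424, 2.38 and 1.79 FPKM trained (log2 fold change −2.74, SE 0.64), although its trained libraries overlapped the controls (1.14 to 3.37 FPKM) and naive replicate 1 lay just above them. Oasl2, an antiviral OAS family gene, had 4.65, 27.5 and 30.0 FPKM in naive and 1.53 to 3.26 FPKM in trained libraries. Ifi44 had 0.869, 5.40 and 6.60 FPKM naive and 0.360 to 0.591 FPKM trained. In each of these 4 genes, naive replicate 1 was the lowest naive library by a wide margin.

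Of the 39 interferon-stimulated genes tested, 15 were separated downward and 0 upward, the median was −0.98, and 11 had all trained libraries below all controls. The mean log2(FPKM + 1) of the list was 1.95, 3.39 and 3.33 in naive, 1.53, 2.01 and 1.91 in trained and 1.804, 2.37 and 1.93 in control libraries. Naive replicate 1 therefore lay within the range of the controls, and the list mean of naive replicates 2 and 3 lay above every other library. Leaving out naive replicate 1 raised the number of genes called lower from 0 to 26, of which 14 are in this list, 0 in the GTPase list and 12 in no list. Naive replicate 1 was the naive library with the lowest list mean, so these calls rest on which library was left out. In 22 of the 26, naive replicate 1 stood at or below the highest control, and in 16 it was above all trained libraries. The lists do not hold every gene induced by interferon, so the 12 in no list are not shown to lie outside that response. They include Ccl7, Eif2ak2, Ifi27l2a, Nmi, Ogfr, Parp10, Slfn5, Trim21 and Ube2l6. Named after their values were seen, Ccl2 and Ccl12, chemokines for monocytes, were also among the 12. Ccl2 was at 1.08, 5.31 and 3.92 FPKM in naive and 0.186, 0.812 and 0.0751 FPKM in trained libraries, and Ccl12 at 3.44, 17.4 and 22.9 FPKM and 1.399, 2.73 and 1.44 FPKM. With all libraries both missed the threshold. Only naive libraries reached 1 FPKM for Ccl2, so it was tested only through that group.

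Interferon-inducible GTPases, which attack the vacuoles of intracellular microbes and respond chiefly to interferon gamma, had the lowest median of all lists. Of 15 tested, 15 had estimates below 0, 14 were separated downward, and the median was −1.37. Iigp1 was at 10.3, 60.7 and 17.8 FPKM in naive, at 1.55, 3.68 and 3.69 FPKM in trained and at 1.34, 2.33 and 1.01 FPKM in control libraries. Its naive libraries all lay above the other 6, and naive replicate 2 was far above the other naive ones (log2 fold change −2.62, SE 0.55, adjusted p = 0.455 by limma). Gbp2, a guanylate-binding protein gene, was at 10.2, 56.9 and 10.4 FPKM naive and 1.92, 6.63 and 4.21 FPKM trained. Gbp3 (6.01, 26.6 and 16.4 FPKM naive, 2.30 to 5.23 FPKM trained) and Gbp7 (3.10, 13.6 and 7.29 FPKM naive, 1.28 to 2.70 FPKM trained) had naive libraries above all trained ones. The controls were at 1.69 to 3.10 FPKM for Gbp2, 4.25 to 7.07 FPKM for Gbp3 and 1.61 to 2.84 FPKM for Gbp7. For Gbp3, naive replicate 1 lay inside the range of the controls, whereas for Gbp2 and Gbp7 all naive libraries lay above it.

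In 14 of the 15 GTPase genes all naive libraries were above all controls, whereas in the interferon-stimulated list this held for 6 of 39. The list mean of log2(FPKM + 1) was 2.36, 4.46 and 2.69 in naive, 1.23, 2.04 and 1.89 in trained and 1.16, 1.66 and 1.23 in control libraries. Naive replicate 2 was thus highest in the GTPases, while replicates 2 and 3 were alike in the interferon-stimulated list. Several of these genes are near copies of each other (the Gbp cluster, Tgtp1 and Tgtp2), and how the deposited values divide reads between copies is not known, so they are not separate witnesses.

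**Figure D3:**
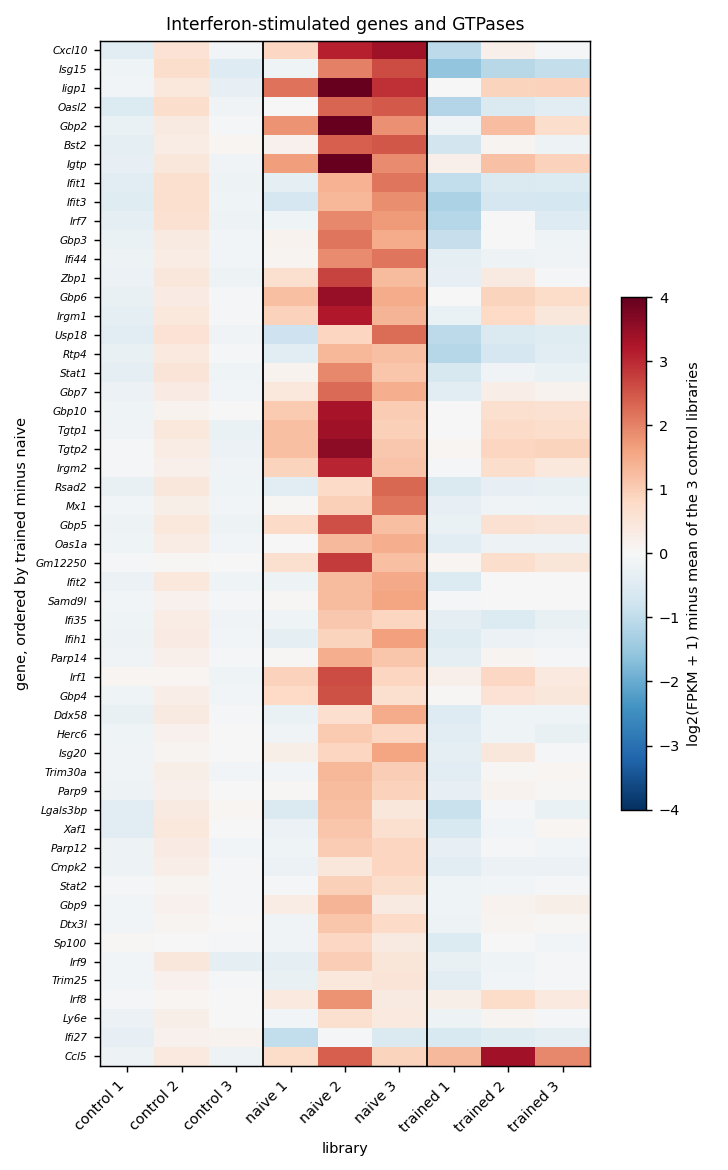
Colour shows log2(FPKM + 1) of each of the 54 interferon-stimulated and GTPase genes (rows, ordered by trained minus naive) minus the mean of the 3 scrambled control libraries, in each of the 9 libraries (columns). The scale ends at 4 in both directions, and larger differences take the end colour. Naive replicate 2 is red in nearly all rows, naive replicate 3 in most, and naive replicate 1 mainly in the GTPases, while trained replicate 1 is the palest or bluest of the trained libraries.

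Promoters of both interferon groups are shown to give the letters of the response element. The motif, a pair of GAAA with any 2 bases between them and searched on both strands in the 250 bases before the start, was found in 10 of 11 promoters of the GTPases (90.9%), from 10 of the 10 genes with a promoter in the table, and in 9 of 37 promoters of the interferon-stimulated genes (24.3%). It occurred in 2.98% of all promoters and 2.46% of those of genes tested. Other lists held it too, in 6 of 32 activity effector promoters (18.8%) and 3 of 18 class I promoters (16.7%). Ribosomal protein genes held it in 6 of 67 (8.96%) and circadian clock genes in 0 of 27. Both interferon lists are made of genes induced by interferon, and several GTPase genes are near copies. The match of letters is a description and not evidence on trained against naive libraries. Capitals mark the motif on either strand, and each sequence is written 5′ to 3′ on the strand of the gene (RefSeq, GRCm38.p6). Isg15 is at chr4:156200819-156201068 on the minus strand with 3 overlapping matches, and Cxcl10 at chr5:92348890-92349139 on the minus strand with 1. Gbp3 is at chr3:142559794-142560043 and Gbp2 at chr3:142620413-142620662, both on the plus strand, with 2 overlapping matches in Gbp3 and 1 in Gbp2, all on the opposite strand.
Isg15: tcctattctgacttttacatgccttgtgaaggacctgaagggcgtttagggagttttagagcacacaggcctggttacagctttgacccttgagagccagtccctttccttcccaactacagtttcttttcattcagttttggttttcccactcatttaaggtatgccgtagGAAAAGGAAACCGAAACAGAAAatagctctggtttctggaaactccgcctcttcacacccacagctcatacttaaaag
Cxcl10: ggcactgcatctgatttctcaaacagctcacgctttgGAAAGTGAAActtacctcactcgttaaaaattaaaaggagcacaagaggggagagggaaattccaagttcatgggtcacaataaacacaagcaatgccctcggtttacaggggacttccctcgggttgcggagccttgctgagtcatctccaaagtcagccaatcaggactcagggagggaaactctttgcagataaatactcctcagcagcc
Gbp3: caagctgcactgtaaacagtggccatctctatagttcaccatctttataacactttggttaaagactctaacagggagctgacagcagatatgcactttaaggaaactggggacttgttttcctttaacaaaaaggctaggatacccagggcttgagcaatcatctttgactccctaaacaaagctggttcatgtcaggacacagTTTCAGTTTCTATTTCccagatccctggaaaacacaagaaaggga
Gbp2: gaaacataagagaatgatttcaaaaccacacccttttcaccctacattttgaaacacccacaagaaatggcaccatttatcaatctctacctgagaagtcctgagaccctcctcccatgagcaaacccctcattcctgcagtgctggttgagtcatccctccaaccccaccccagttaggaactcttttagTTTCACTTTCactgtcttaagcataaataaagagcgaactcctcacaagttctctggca

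Class I antigen presentation genes, which load peptides for display to CD8 T cells, had 18 of 20 estimates below 0 and a median of −0.53, but 0 were separated in either direction. Psmb10, an immunoproteasome subunit, was at 12.5, 25.4 and 20.1 FPKM in naive and 9.00, 12.8 and 10.8 FPKM in trained libraries, and Tap1, the peptide transporter, at 2.83, 14.3 and 5.83 FPKM and 1.21, 3.64 and 2.58 FPKM. In both genes naive replicate 1 lay inside the trained range. Class II genes, expressed by microglia and other professional presenting cells, were divided. Cd74, the invariant chain, was at 22.6, 125 and 3.30 FPKM in naive, 30.5, 69.9 and 44.2 FPKM in trained and 0.401 to 2.33 FPKM in control libraries. H2-Aa was at 8.56, 50.2 and 0.4997 FPKM naive, 9.61, 20.8 and 13.8 FPKM trained and 0.282 to 0.630 FPKM in controls. All trained libraries and naive replicates 1 and 2 lay far above the controls, and naive replicate 3, which was high in interferon-stimulated genes, was near the control level. Of the 8 class II genes tested, 5 had estimates above 0 and 3 below. Their median was 0.16 and kept its sign in 17 of 21 settings, and the sign of Cd74 and H2-Aa turned without naive replicate 3. The members with the smallest p, H2-DMa and H2-DMb1, had estimates below 0 (−0.37 and −0.52). H2-DMa was at 6.38, 13.2 and 5.47 FPKM in naive and 5.86, 5.90 and 5.70 FPKM in trained libraries.

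Microglial markers also varied among the naive libraries. All 24 were tested, and their summed level was 464.8, 916.4 and 508.8 FPKM in naive, 459.5, 689.6 and 549.3 FPKM in trained and 374.8, 361.5 and 448.5 FPKM in control libraries, with none of the defining markers at 0. Naive replicate 2 was the highest and the groups overlapped, with 19 of 24 estimates below 0 and a median of −0.12 that turned to 0.11 without that library. Reactive astrocyte genes, 11 of 17 tested and Cxcl10 among them, summed to 223.9 to 414.3 FPKM naive and 212.7 to 314.1 FPKM trained, and naive replicate 2 was again highest. The part of microglia and astrocytes in the interferon difference was not tested.

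**Figure D4:**
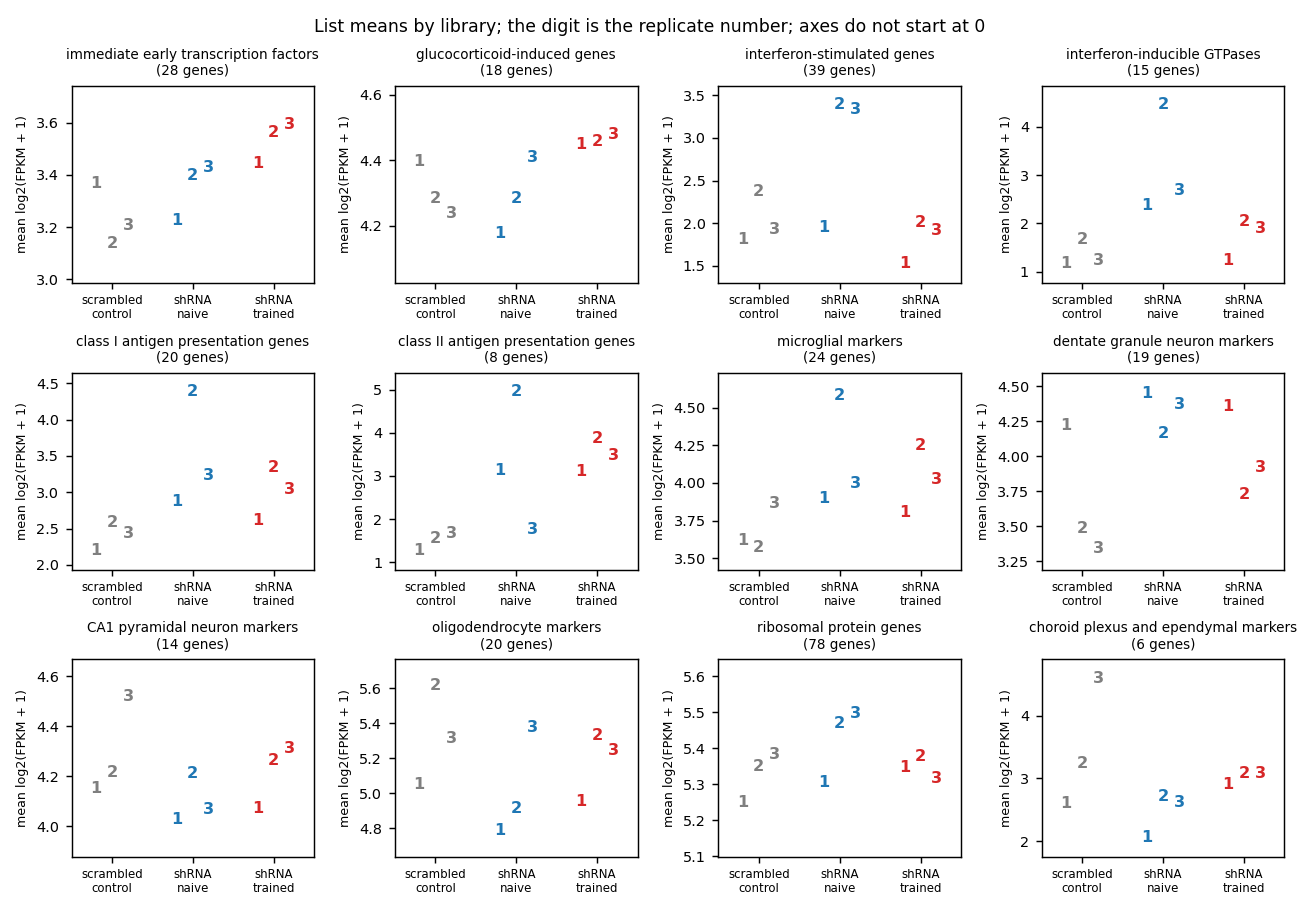
Mean log2(FPKM + 1) over the tested members of 12 lists (y axis, which does not start at 0) in each library, written as its replicate number and coloured by group. Naive replicates 2 and 3 stand apart in interferon-stimulated genes, naive replicate 2 alone in GTPases, class I genes and microglial markers, and naive replicate 3 is low in class II genes.

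Genes of the H2A.Z pathway showed small differences, mostly below 0. Of 33 tested genes for H2A.Z and its exchange complexes, 26 had estimates below 0, with a median of −0.05 and a range from −0.18 to 0.06. The trained libraries lay below the naive ones in 5 and above in 1. Of all genes, 9.15% were separated downward and 5.78% upward. Estimates below 0 made up 58.7% of all genes, whose median was −0.02. Znhit1, a subunit of the SRCAP complex, was at 21.5, 21.2 and 21.3 FPKM naive and 18.6, 19.2 and 18.5 FPKM trained. Epc2, of the p400 complex, was at 12.4 to 13.2 FPKM naive and 11.5 to 12.3 FPKM trained. Canonical and other variant histone genes had 15 of 16 estimates below 0 and a median of −0.13, with 4 separated downward. Hist1h2be was at 5.63 to 6.98 FPKM naive and 3.39 to 4.97 FPKM trained, the linker histone gene H1f0 at 40.5 to 43.0 and 36.2 to 37.4 FPKM, and H3f3b, a gene for H3.3, at 74.2 to 85.0 and 66.9 to 69.5 FPKM. Canonical histone transcripts lack a poly(A) tail for the most part, so their levels in polyadenylated RNA are not their full levels.

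Chromatin enzymes linked to memory were divided, with 16 of 29 estimates above 0 and a median of 0.02. Kdm6b, an H3K27 demethylase, was at 6.21 to 6.43 FPKM naive and 7.27 to 7.47 FPKM trained, whereas Hdac1, a deacetylase, was at 4.61 to 5.38 and 3.62 to 4.41 FPKM. Parp1, which modifies chromatin at active genes, was at 31.7 to 32.3 FPKM naive and 35.8 to 37.8 FPKM trained. The values within each group were close together for Kdm6b and Parp1, and none of the 3 passed the threshold.

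Synaptic genes as a class were not separated more often than all genes were. Across 100 genes of glutamate receptors, postsynaptic scaffolds, GABA-A receptors and presynaptic release, 51 estimates were above 0, against 41.3% of all genes. Of the 100, 5% were separated upward and 4% downward, both under the shares of all genes (5.78% and 9.15%). Single genes had clear gaps. Grin1, the obligatory NMDA receptor subunit, was at 98.1 to 102.4 FPKM naive and 106.4 to 114 FPKM trained, and Grm3, a glutamate receptor of glia and terminals, at 18.3 to 19.0 and 15.5 to 16.1 FPKM. Homer2 barely separated at 13.8 to 17.2 FPKM naive and 17.3 to 20.3 FPKM trained. Syn2, a vesicle phosphoprotein, was narrowly separated downward at 110.3 to 124 FPKM naive and 94.9 to 109.05 FPKM trained.

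Ion channel genes were separated upward more often than all genes were. Of 69 tested, 14 were separated upward (20.3%, against 5.78% of all genes) and 3 downward (4.35%, against 9.15%), although the median was only 0.02. Kcnh7, an ERG-type potassium channel, was at 5.45, 6.31 and 4.70 FPKM in naive, 6.89, 8.43 and 7.68 FPKM in trained and 7.12, 8.001 and 8.10 FPKM in control libraries. Kcnn2, the SK2 channel that limits excitability of CA1 cells, was at 25.8 to 28.3 FPKM naive, 29.5 to 34.6 FPKM trained and 32.6 to 33.1 FPKM in controls. Scn4b, a sodium channel beta subunit, was at 5.98 to 9.56 FPKM naive, 10.3 to 14.4 FPKM trained and 11.4 to 18.2 FPKM in controls. Cacna1a, the P/Q-type calcium channel, was at 12.9 to 13.5, 14.2 to 14.6 and 15.2 to 16.1 FPKM. In all 4 genes the naive libraries were the lowest of the 3 groups. Among peptide system genes, the receptor genes Npy2r (11.6 to 13.3 FPKM naive, 8.32 to 10.2 FPKM trained) and Sstr1 (4.14 to 5.54 and 2.43 to 4.02 FPKM) were separated downward.

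**Figure D5:**
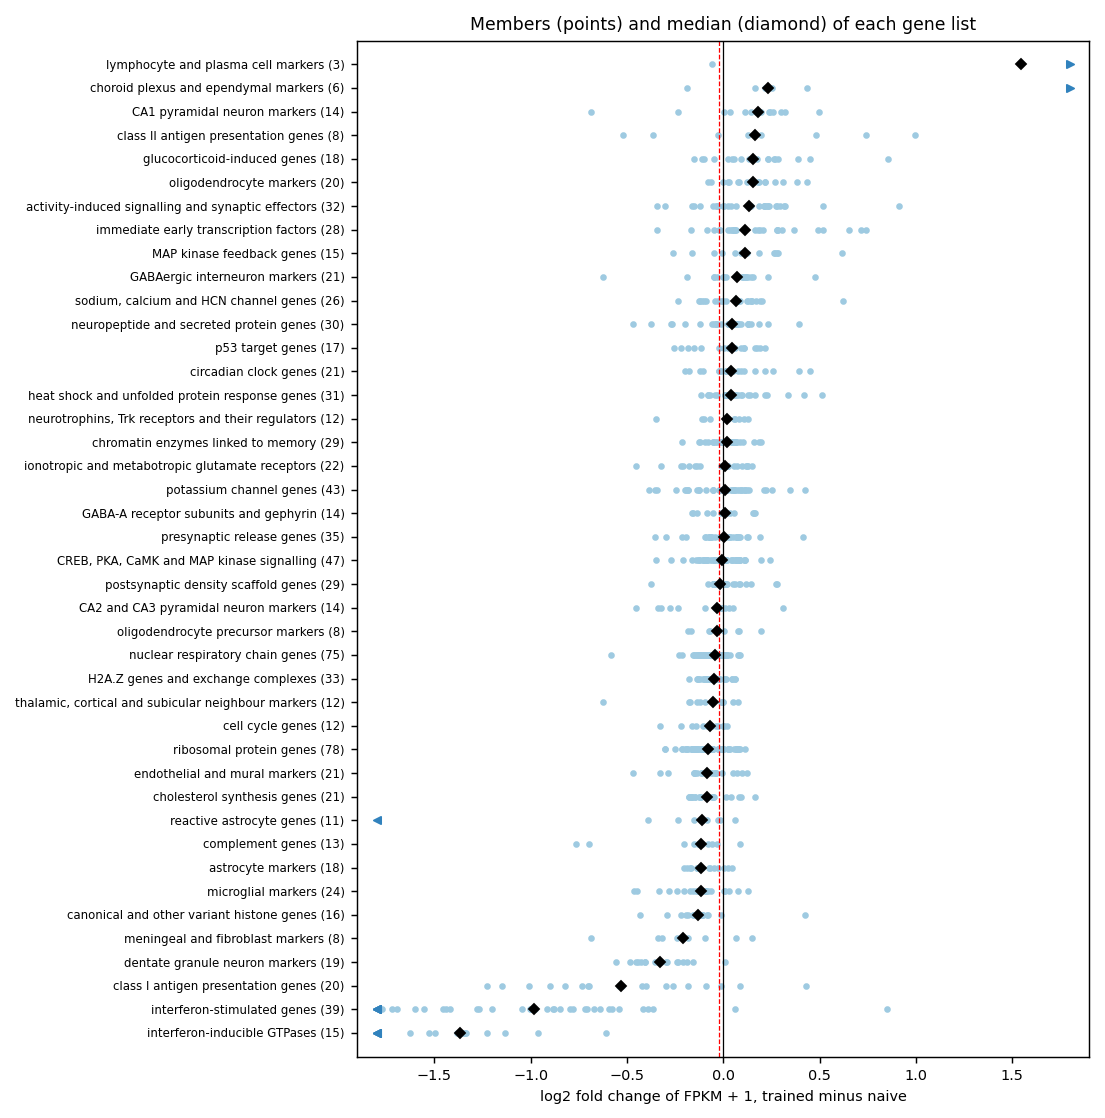
Log2 fold change of FPKM + 1 (trained minus naive, x axis) of each tested member (points) and the list median (diamond) for all 42 gene lists (rows, number tested in brackets), with triangles for members beyond the axis and a dashed line at the median of all genes (−0.02). The interferon lists lie farthest to the left, dentate markers lie left of 0 and the activity and glucocorticoid lists a little to the right.

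Beside these neuronal lists stand differences in the summed level of regional markers. The 19 dentate granule neuron markers, all tested and none at 0, summed to 563.8, 447.5 and 535.2 FPKM in naive, 533.8, 338.6 and 379.9 FPKM in trained and 479.2, 277.1 and 258.6 FPKM in control libraries. Trained replicates 2 and 3 were lower than all naive libraries and trained replicate 1 lay inside their range. Of the 19, 18 had estimates below 0, with a median of −0.33, and 1 was separated, Capn3, a calpain gene, at 4.69 to 5.52 FPKM naive and 3.38 to 3.79 FPKM trained. Prox1 was at 28.9, 19.7 and 24.7 FPKM naive and 24.2, 14.1 and 16.2 FPKM trained. The 14 CA1 pyramidal markers summed to 333.0 to 387.1 FPKM in naive and 350.2 to 442.7 FPKM in trained libraries, with 12 of 14 estimates above 0 and a median of 0.18. Among them, Ndst4 was at 8.74 to 9.97 FPKM naive and 11.0 to 13.3 FPKM trained, and Dcn, also a marker of fibroblasts, at 4.63 to 6.67 and 2.66 to 4.28 FPKM. The part of these markers in the activity, channel and synaptic differences was not tested by itself. With the mean of the dentate markers as a covariate, Sgk1 still passed.

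Interneuron, glial and vascular markers varied less evenly. GABAergic interneuron markers had 15 of 21 estimates above 0 and a median of 0.07, with 2 separated upward and 1 downward. The groups overlapped for Gad1 (77.9 to 79.6 FPKM naive, 74.9 to 82.0 FPKM trained), Gad2 (26.8 to 29.5 and 28.2 to 32.5 FPKM) and Slc32a1 (18.3 to 19.3 and 18.3 to 21.6 FPKM). Crhbp, expressed by somatostatin interneurons, was at 17.4 to 21.1 FPKM naive and 23.3 to 31.4 FPKM trained, and Calb2 (calretinin) at 4.77 to 8.59 and 2.57 to 4.54 FPKM. Oligodendrocyte markers had 17 of 20 estimates above 0 and a median of 0.15 with 0 separated, and Mbp, the myelin basic protein gene, overlapped at 367 to 627 FPKM naive and 487 to 641 FPKM trained. Astrocyte markers had 15 of 18 below 0, with 5 separated, among them the water channel gene Aqp4 at 36.4 to 43.3 FPKM naive and 32.4 to 35.7 FPKM trained. Cldn5, a tight junction gene of endothelium, was at 21.8, 25.6 and 21.7 FPKM in naive, 15.04, 17.8 and 16.3 FPKM in trained and 15.2, 20.1 and 20.9 FPKM in control libraries. It passed the threshold only with the dentate marker covariate (limma adjusted p = 0.0148, log2 fold change −0.62, against −0.47 and 0.55 without it).

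The 10 genes with the smallest p in each direction were taken from those whose groups did not overlap, without predicted, small RNA and duplicated symbols. Their differences were modest. That their values are close within each group follows from this choice and is no result. In the upward direction, behind Sgk1, were Rundc1 (12.8 to 13.6 FPKM naive, 15.8 to 16.3 FPKM trained), the collagen gene Col11a1 (1.21 to 1.60 and 2.28 to 2.82 FPKM), Lingo3, a leucine-rich repeat membrane protein gene (15.1 to 17.5 and 19.8 to 22.1 FPKM), Egr1, Nr4a3, Tex30 (1.91 to 2.59 and 3.10 to 3.70 FPKM), the adaptor gene Shb (2.93 to 3.33 and 3.92 to 4.51 FPKM), Gpr161, a ciliary receptor that is also one of the CA1 markers (9.02 to 12.4 and 13.8 to 16.6 FPKM), and Dusp5. For Rundc1, Lingo3, Shb and Gpr161 the scrambled controls (14.2 to 15.5, 20.7 to 21.5, 4.19 to 4.67 and 16.1 to 16.9 FPKM) lay above all naive libraries and close to the trained level. Their limma adjusted p ran from 0.455 to 0.463.

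In the downward direction, Ndufs5, a subunit of respiratory complex I, had the smallest p, at 41.0, 46.0 and 37.5 FPKM in naive, 26.2, 26.2 and 29.6 FPKM in trained and 33.0, 39.4 and 33.9 FPKM in control libraries. The trained libraries lay below all 6 others (log2 fold change −0.58, SE 0.09, adjusted p = 0.455 by limma). The others were Aprt, of purine salvage (16.7 to 17.6 FPKM naive, 13.4 to 14.6 FPKM trained), the syndecan Sdc3 (29.7 to 32.3 and 24.7 to 26.7 FPKM), Commd1 (26.7 to 29.0 and 22.2 to 24.1 FPKM), Rilpl2 (7.76 to 8.70 and 5.82 to 6.81 FPKM), the adhesion molecule Cadm1 (39.5 to 42.4 and 31.4 to 34.0 FPKM), Cxxc5 (26.0 to 27.3 and 21.7 to 22.9 FPKM), Cideb (2.45 to 2.74 and 1.62 to 1.71 FPKM), Rgcc (15.9 to 17.2 and 13.4 to 14.0 FPKM) and the Notch target Hes5 (3.80 to 4.18 and 2.40 to 3.04 FPKM). In all of them except Ndufs5 the naive libraries also lay above every control.

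Housekeeping lists leaned below 0 by small amounts. Ribosomal protein genes had 65 of 78 estimates below 0, a median of −0.08, and 11 separated downward against 1 upward. The mean log2(FPKM + 1) of the list was 5.306, 5.468 and 5.497 in naive and 5.346, 5.377 and 5.316 in trained libraries. Naive replicate 1 thus lay below every trained library, and naive replicates 2 and 3 lay above every trained library. Rps2 was at 44.2 to 48.8 FPKM naive and 36.1 to 41.4 FPKM trained, and Rps29 at 12.3 to 13.1 and 10.7 to 11.4 FPKM. Nuclear respiratory chain genes had 61 of 75 below 0, a median of −0.04 and 5 separated downward. Their list mean in naive replicate 1, at 6.443, lay inside the range of the trained libraries (6.438 to 6.552). Of all genes, 58.7% had estimates below 0 and 9.15% were separated downward, so the respiratory chain count of separated genes lay under the background. The median of all genes was −0.02. Transcript length moved with this lean below 0. In the tenth of protein-coding genes with the shortest transcripts (median 1144 bases) the median log2 fold change was −0.06, with 151 genes separated downward and 24 upward. In the tenth with the longest (median 8591 bases) it was 0.01, with 48 genes separated downward and a larger number upward. Across the 11369 protein-coding genes, Spearman's rho of fold change with longest transcript length was 0.21. These genes share the same 6 libraries, and the part of length in the housekeeping lists was not tested.

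Transcripts known from plasma cells were high in part of the trained group. Igj, the joining chain of secreted antibodies, was at 0.184, 61.6 and 18.5 FPKM in trained libraries, at 0.0660, 0.0716 and 0.155 FPKM in naive and at 0.0372 to 0.0873 FPKM in control libraries. Trained replicates 2 and 3 were far above all others and trained replicate 1 was near the naive level. Of the settings run, Igj was called higher only without trained replicate 1, the one trained library near the naive level, so that call rests on which library was left out. Mzb1, an endoplasmic reticulum protein of B lineage cells, was at 7.87 and 1.94 FPKM in trained replicates 2 and 3 and listed at 0 in trained replicate 1. Both genes reached 1 FPKM in trained replicates 2 and 3 alone, so they were tested only through those libraries. Of 30 lymphocyte and plasma cell markers, 3 reached the limit of 1 FPKM. Ttr, transthyretin of the choroid plexus, was at 5.77, 12.5 and 23.4 FPKM naive, 92.7, 38.4 and 96.4 FPKM trained and 33.2 to 764 FPKM in control libraries. Naive libraries were the lowest and controls the most spread, and the 6 of 18 choroid plexus and ependymal markers that were tested summed to 47.6 to 79.3 FPKM in naive, 104.2 to 168.1 FPKM in trained and 85.8 to 942.6 FPKM in control libraries. The part of such tissue in other differences was not tested.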

How the data were processed

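Polyadenylated RNA of 9 CA1 libraries was sequenced as paired-end reads of 50 bases from directional libraries, per the labels' protocols. Per the submitters' processing notes, reads were checked with FastQC, aligned to mm10 with TopHat 1.4.0 and quantified with Cufflinks and Cuffdiff. No source used here names the gene annotation. The authors deposited FPKM per gene and library, with no counts, so depth was estimated from the steps between low values and no counting interval was computed. FPKM divides by transcript length and by library total, so a rise of abundant RNA lowers all other values.

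From these values, log2(FPKM + 1) was computed, and the 12334 genes that reached a mean of 1 FPKM in the 6 libraries were fitted in 3 groups with limma 3.58.1 (trend) in R 4.3.3, with 6 residual and 2.80 prior degrees of freedom. The contrast was trained minus naive, two-sided, with p-values adjusted across these genes by Benjamini and Hochberg and a threshold of 0.05. The added 1 understates fold changes of low genes. An exact permutation test of 3 libraries against 3 cannot go below p = 0.1. Where nothing tells whether replicates came from separate mice, p-values measure the spread between these libraries. The members and the 42 gene lists were chosen with earlier results of these data known. Of 1057 list symbols, 1050 were in the table and 940 were tested. In the lists, groups are called separated where no trained library overlaps a naive one.

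The genes named were H2afz, H2afv and 8 activity or stress genes, the 10 genes of smallest p per direction whose groups did not overlap, up to 4 members per list described by smallest p, and the leading cell type markers. Predicted, small RNA and duplicated symbols were not named, and 98 tested rows shared 44 names. Coordinates are from GENCODE M21 (GRCm38, the assembly of mm10), which matched 95.4% of symbols. Promoter sequences are from RefSeq. Python 3.11.15 with pandas 2.3.3 was used for depth, promoters and figures. The fit was tested on simulated data. Scaling, pseudocount, filters, prior, weights, a dentate marker covariate and each library left out in turn were tried as alternatives.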

Additional observations from a re-analysis of the deposited data

How the results depend on the processing

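Under 21 alternative settings, 1 of them chosen after seeing the data (without genes that any library lists at 0), Sgk1 kept its direction in 21 and missed the threshold in 1. The number of genes called higher ranged from 0 to 3 and of genes called lower from 0 to 26 when each library was left out in turn. Without trained replicate 3 there were 0 higher and 0 lower. Without trained replicate 1 there were 3 higher (Fam150b, Igj and Sgk1), without trained replicate 2 there were 2 (Mir692-1 and Sgk1), and without naive replicate 3 there were 2 higher (BC002163 and Sgk1) and 3 lower (all small RNA rows). The 26 lower genes came without naive replicate 1. With only the 6 libraries compared, and without control replicate 3, 1 gene was lower, Thoc6, which is listed at 0 in all trained libraries. The dentate marker covariate gave 1 lower gene, Cldn5. The cause of these changes was not tested. Of 114 genes checked, 111 kept their sign. The exceptions were Cd74 (−0.23) and H2-Aa (−0.55) without naive replicate 3, and H2afz (0.00886) without trained replicate 2. With each library left out in turn, these ranged from −0.23 to 2.21, from −0.55 to 1.99 and from −0.11 to 0.00886. Of 42 list medians, 24 kept their sign in all settings, among them the activity, glucocorticoid, interferon, class I, ribosomal and CA1 lists.

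No paired analysis was possible because the labels give no replicate numbers that groups share. With 3 libraries a group, differences as variable as those of the interferon genes did not pass the threshold, and low genes rest on few fragments.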

Other observations

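Some lists without a part in the comparisons above gave mixed values. Of 17 p53 target genes tested, 11 had estimates above 0 with a median of 0.05. The pro-apoptotic gene Bbc3 (PUMA) was at 2.41 to 2.71 FPKM in naive and 1.90 to 2.11 FPKM in trained libraries, whereas Zmat3, which encodes an RNA-binding protein induced by p53, was at 14.7 to 15.5 and 15.7 to 18.5 FPKM. Both were separated, in opposite directions. Cholesterol synthesis genes had 16 of 21 estimates below 0 and a median of −0.09. Cell cycle genes, 12 of 24 tested, had 10 estimates below 0, and Cdk4 was at 19.7 to 21.3 FPKM naive and 17.2 to 19.5 FPKM trained.

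Serping1, the C1 inhibitor of the complement cascade, was the 1 complement gene of 13 tested whose groups were separated, at 3.35, 10.8 and 3.75 FPKM in naive, 2.22, 3.17 and 2.71 FPKM in trained and 1.28 to 1.74 FPKM in control libraries. Naive replicate 2 was the highest here as well. Among fibroblast markers, Lum was at 1.15 to 1.83 FPKM naive and 0.850 to 1.12 FPKM trained, next to Dcn. Pdgfra, a receptor gene of oligodendrocyte precursors and fibroblasts, was at 6.995 to 7.23 FPKM naive and 5.499 to 6.77 FPKM trained. None of these genes passed the threshold of the comparison across all genes.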
